A study of Mus musculus with 6 samples.

Results

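The binding of YTHDC1 to the RNAs of 10 collagen genes was examined in mouse myogenic cells: Col1a1, Col1a2, Col3a1, Col5a1 and Col5a2, which encode chains of fibril-forming collagens, Col4a1 and Col4a2, which encode the chains of basement membrane collagen, and Col6a1, Col6a2 and Col6a3, which encode collagen VI, a microfibrillar collagen of the muscle interstitium. They are 10 of 22372 protein-coding genes in the annotation and were chosen by name. LACE-seq crosslinks a protein to RNA in living cells with UV light, pulls it down with an antibody and reads the position at which reverse transcription stops. Of the 6 libraries, 4 came from satellite cells activated by 48 hr in culture (ASC-48 hr; biological replicates are named B1 and B2, and each was run as T1 and T2) and 2 from C2C12, an established mouse myoblast line, in growth medium. All 6 carry the label WT and were made with the same YTHDC1 antibody, and no library without that antibody was analysed here. The satellite cells were sorted from muscle and grown with bFGF on a coated dish, and C2C12 stands for myoblasts as 1 line. The labels call the C2C12 libraries biological replicates and the study's text calls them technical, so the spread between them may hold no difference between cultures. They were made from more cells than the ASC-48 hr libraries.

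YTHDC1 is the nuclear reader of N6-methyladenosine (m6A), a mark placed on RNA by the METTL3 complex, and is known for roles in splicing and nuclear export. Fibrillar collagens are synthesised as procollagen chains whose long central stretch repeats Gly-X-Y, the unit that folds into the triple helix, between propeptides that are cut off outside the cell. In muscle these proteins are mainly made by fibroblasts, and myogenic cells also make them, collagen V and VI among those found around satellite cells.

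A peak was counted for a gene when it lay wholly inside the mm9 interval of the gene, with its reads on the strand opposite to the gene, which is the strand that RNA of the gene gives in these libraries. In C2C12 replicate 1, 294 collagen peaks lay on that strand and 0 on the other, and in replicate 2 the numbers were 305 and 1. A peak of replicate 1 that overlapped one of replicate 2 is called shared. The deposited signal is the number of reads in each bin of 20 nt. The lists held 60540 and 71992 peaks in C2C12 and 7925 to 19448 in the ASC-48 hr libraries, and the lowest signal listed was 6 reads per bin in C2C12, 5 in 3 of the ASC-48 hr libraries and 4 in B2 T2. The total depth is unknown, so the cell types are given side by side and were not tested against each other. The amount of each RNA was not measured here, and more peaks on a gene cannot be told apart from more of its RNA.

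The strongest shared peaks in C2C12 fell on different kinds of sequence, and 6 of the members' are shown to make this visible. Each is written 5′ to 3′ along the RNA in DNA letters, as the bin with the 5 nt on both sides. Capitals mark the words GGAC and AGAC and the words GAAC and AAAC. These 4 words spell the RRAC part of the m6A consensus RRACH, where R is A or G, and other forms of the consensus were not marked. The first 4 lie on exons that code for Gly-X-Y repeats and carry none of the 4 words (in Col1a1 the first 12 nt are intron and the 18 that follow are coding, and in Col1a2 the first nt is intron), the 5′UTR peak of Col5a1 holds GAAC and the coding peak of Col6a2 holds GGAC. Of the strongest peaks not shown, those in the 3′UTRs of Col4a2 and Col6a1 hold AGAC and AAAC. Those of Col5a2, on a Gly-X-Y exon, and of Col6a3, in an intron, hold none. Whether the words differ by kind of sequence was not tested.
Col1a1, chr11:94806216-94806245, plus strand, exon 29: cccaccttacagggtcttcctggtcctgcc
Col1a2, chr6:4480956-4480985, plus strand, exon 35: gggtgaagctggtgctgccggtccttctgg
Col3a1, chr1:45384656-45384685, plus strand, exon 10: gtatcaaaggcccagctggcatgcctggat
Col4a1, chr8:11208256-11208285, minus strand, exon 47: gttcgatggtgctcctggccagaaaggaga
Col5a1, chr2:27742176-27742205, plus strand, 5′UTR: tccaGAACagccaccgccgcgggggagatc
Col6a2, chr10:76066496-76066525, minus strand, exon 26: tGGACgccctctgccctcaagtttgcctat

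In C2C12 all 10 collagen RNAs carried shared YTHDC1 peaks, 169 in all, and most of these lay in coding exons. Over all protein-coding genes 21.8% had at least 1 shared peak, and among genes with as much exon as the collagen genes (4.113 to 11.22 kb) the share was 40.3%. Collagen peaks made up 0.581% of the 29087 shared peaks. Of the peaks of replicate 1, 57.5% were found in replicate 2 (exact Clopper-Pearson 95% interval 51.6 to 63.2), and the share was higher for stronger peaks, from 38.9% of 144 peaks under 8 reads per bin to 82.9% of 82 peaks with at least 10. None of the collagen peaks lay on a run of 10 G, and the first 20 nt of 161 of the 169 shared peaks occurred once in the genome.

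Col6a3 (chr1:92663435-92740529, minus strand), the longest chain of collagen VI, held 47 shared peaks, with 87 peaks in replicate 1 and 87 in replicate 2. Col3a1 (chr1:45368383-45406551, plus strand), the chain of collagen III, held 33 shared peaks, with 47 and 48 in the replicates. Col5a1 (chr2:27741945-27895034, plus strand), a chain of the collagen V that starts fibrils, held 32, with 59 and 63. These were followed by Col1a2 (chr6:4454814-4491543, plus strand), a chain of collagen I, with 31 shared peaks and 45 and 47 in the replicates. Neighbours in this order that differed by 2 peaks or fewer, Col3a1, Col5a1 and Col1a2, were not separated by their shared peaks. Col1a1, which encodes the other collagen I chain, held 10 shared peaks, with 17 and 18 in the replicates. Col6a1 held 7 (15 and 14), Col5a2 held 5 (11 and 13) and Col4a1 held 2 (2 and 6). Col4a2 and Col6a2 held 1 each, with 5 and 4 peaks and with 6 and 5 peaks in the replicates. The number of peaks per gene differed between the replicates by 0 to 4, so that the gap from the 4 leading genes to the other 6 was wider than that spread in the full list. The lead of Col6a3 rested on weak peaks. With at least 8 reads per bin in both libraries it kept 15, against 20 on Col1a2, 18 on Col3a1 and 16 on Col5a1. At p-values of at most 1e-05 in both it kept 3, against 9 on Col1a2, 7 on Col3a1, 7 on Col5a1 and 2 on Col1a1, and its exon peaks per kb then stood at 0.0891, sixth of the 10 genes.

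The order changed once exon length was taken into account. Over the 10 genes 148 shared peaks overlapped exons, which gave 2.22 peaks per kb of exon over 66.624 kb, with 3.56 in replicate 1 and 3.60 in replicate 2 taken alone. Col3a1 led with 5.74 shared exon peaks per kb, and Col1a2 had 5.42. In the single libraries Col3a1 had 7.89 and 7.53 and Col1a2 had 7.40 and 7.76, so the order of these 2 genes was not stable between replicates. Col6a3 had 3.39 shared exon peaks per kb and Col5a1 had 2.59. Col6a1 (1.70) and Col1a1 (1.69) stood close together, Col5a2 had 0.755, and Col4a1, Col6a2 and Col4a2 had 0.302, 0.166 and 0.154. Among the 4880 genes with a shared peak the median was 0.350 per kb and the 95th percentile 3.62, so that Col3a1 (rank 103) and Col1a2 (rank 119) lay above that percentile and the last 3 collagen genes below the median.

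**Figure D1:**
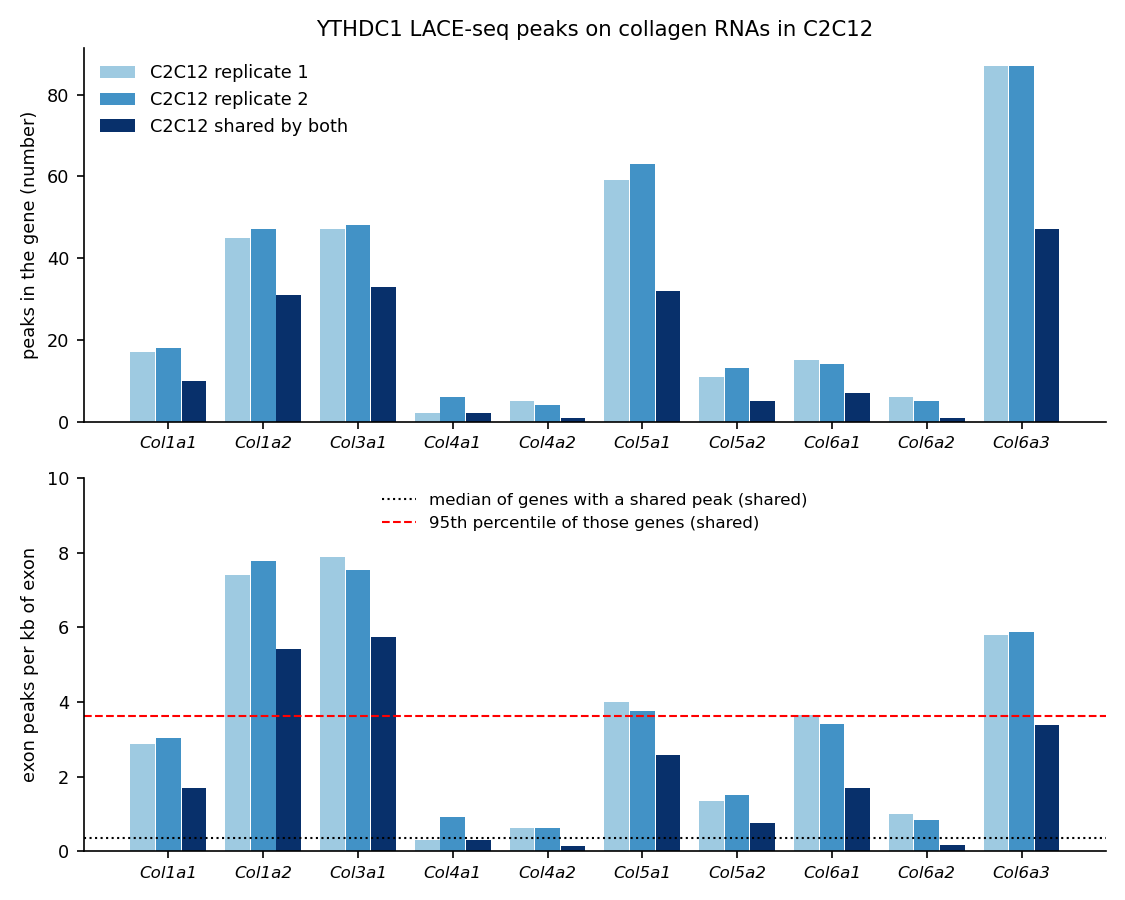
YTHDC1 LACE-seq peaks on the 10 collagen genes in C2C12 replicate 1, replicate 2 and shared by both: number of peaks per gene (top) and exon peaks per kb of exon (bottom), where the dotted and dashed lines give the median (0.350) and 95th percentile (3.62) of shared exon peaks per kb over genes with a shared peak. The replicates of a gene differ by at most 4 peaks, which for Col4a1 is 2 against 6, Col6a3 has most peaks in the full list (47 shared, but not among peaks of at least 8 reads per bin), and Col3a1 and Col1a2 have most per kb of exon.

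The chains of 1 collagen differed in their numbers of peaks, which cannot be told apart from a difference in their amounts of RNA. The partner chains of collagen I differed, with 31 shared peaks on Col1a2 against 10 on Col1a1 although their exons are of similar length (5.538 and 5.93 kb). In collagen VI, Col6a3 held 47 shared peaks on 11.22 kb of exon, against 7 on 4.113 kb of Col6a1 and 1 on 6.008 kb of Col6a2. The lead of Col6a3 over Col6a1 rested on weak peaks. With at least 8 reads per bin in both libraries they had 1.07 and 0.973 exon peaks per kb. At p-values of at most 1e-05 in both, the order turned to 0.0891 and 0.243, on few peaks. For collagen V the numbers were 32 on Col5a1 (8.49 kb of exon) and 5 on Col5a2 (6.625 kb). The fibril genes together held 111 shared peaks and 3.08 exon peaks per kb, the collagen VI genes 55 and 2.16, and the basement membrane genes 3 and 0.229. The low value of the last group was found in both libraries, with 0.457 and 0.762 exon peaks per kb.

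Among all shared peaks, the share in coding exons was higher on the collagen RNAs than on other RNAs, with intervals that did not overlap. Of the 169 shared peaks 120 overlapped a coding exon (71.0%, 63.5 to 77.7), 21 a 3′UTR (12.4%, 7.86 to 18.4), 7 a 5′UTR (4.14%) and 21 lay in introns (12.4%). Over all other genes the coding share was 42.0% of 19439 shared peaks, the 3′UTR share 19.1%, the 5′UTR share 4.31% and the intron share 34.7%. The coding share was 65.3% (59.6 to 70.7) and 63.3% (57.6 to 68.7) in the single libraries, and the intron share 19.4% and 21.3%. With p-values of at most 1e-05 in both libraries 18 of 29 collagen peaks were coding (62.1%, 42.3 to 79.3), and other genes were not counted that way. Per kb of sequence, collagen coding exons held 2.43 shared peaks, the 3′UTRs 1.29, the 5′UTRs 1.34 and introns 0.0309. The other genes with a shared peak held 0.752, 0.412, 0.388 and 0.0192, so each place stood higher on the collagen genes. The collagen genes hold 49.4 kb of coding sequence, 16.2 kb of 3′UTR and 680 kb of intron. The other genes with a shared peak hold 10847, 9002 and 350933 kb, so intron is a larger part of them. How far these lengths set the coding share was not tested.

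**Figure D2:**
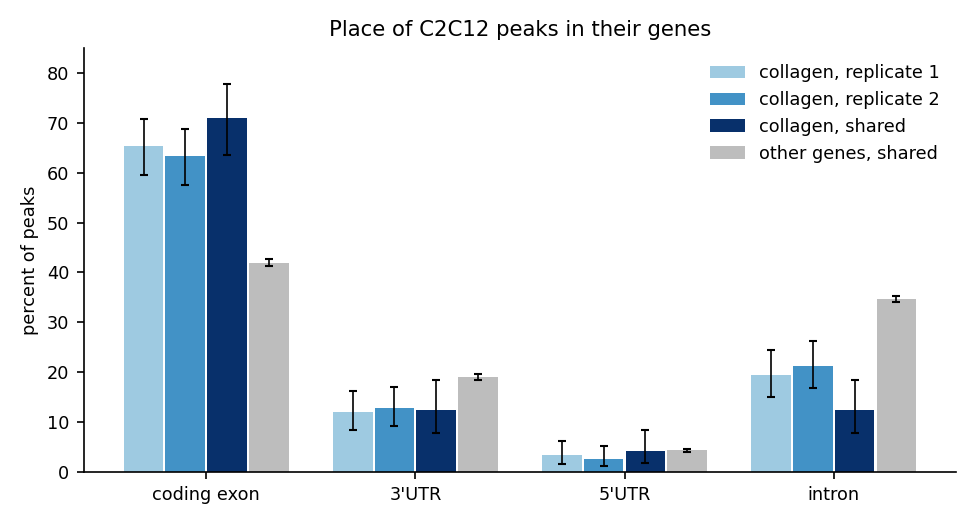
Percent of C2C12 peaks in coding exons, 3′UTRs, 5′UTRs and introns for the collagen genes (each replicate and shared) and for all other genes (shared), with exact 95% intervals over peaks as bars. Coding exons hold 71.0% of the shared collagen peaks and 42.0% of those of other genes, and introns 12.4% and 34.7%.

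The genes differed in where their peaks lay. Every shared peak of Col1a1 (10), Col4a1 (2) and Col6a2 (1) overlapped a coding exon, and Col3a1 had 30 of 33 there. Col1a2 had 23 in coding exons, 4 in its 3′UTR, 3 in its 5′UTR and 1 in an intron. Col5a1 was the most mixed, with 13 coding peaks, 7 in the 3′UTR, 2 in the 5′UTR and 10 in introns. Col6a3 had 33 coding, 5 3′UTR and 9 intron peaks, Col6a1 4 coding and 3 3′UTR peaks, and Col5a2 4 coding peaks and 1 in the 5′UTR. The single shared peak of Col4a2 lay in the 3′UTR.

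Among all 169 shared peaks the mean signal of the replicates ran from 6 to 20.5 reads per bin with a median of 8.5, and the median SD of a peak was 1.41. Only 11 peaks reached a mean of 15, of which Col1a2 held 4, Col3a1 and Col5a1 3 each and Col6a3 1. The highest was the Gly-X-Y peak in exon 35 of Col1a2 printed above, with 23 and 18 reads per bin. The exon 10 peak of Col3a1 had 17 and 21, and the 5′UTR peak of Col5a1 had 19 and 15. In Col6a3 the highest peak lay in an intron (chr1:92710481-92710500, 16 and 14 reads per bin), and the exon 29 peak of Col1a1, whose bin crosses an exon end, had 16 and 10. In Col6a1 the highest was a 3′UTR peak with 10 and 14, whose first 20 nt occur at 2 places in the genome. The Col4a1, Col5a2, Col4a2 and Col6a2 peaks were low, with 10 and 8, 11 and 6, 9 and 6, and 6 and 6 reads per bin. Across the 169 shared peaks, which all passed the caller in both libraries, Pearson's r of the log2 signals was 0.52 as a description.

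Coding sequence for Gly-X-Y repeats held fewer shared peaks per kb than the rest of the coding sequence. Runs of at least 5 Gly-X-Y triplets made up 12.4% of the codons of Col6a3, 31.9% of those of Col6a1 and Col6a2 and 58.8 to 78.4% of those of the others. They held 49 shared peaks, or 1.83 per kb, and the other coding sequence 69, or 3.38 per kb. Of 990 bins wholly inside coding exons that code for Gly-X-Y, 3.94% (2.82 to 5.35) lay in a shared peak, against 8.71% (6.96 to 10.7) of the 907 other bins, and in the single libraries the values were 5.76% against 13.5% and 6.46% against 13.7%. In Col3a1 the densities were 5.91 and 9.33 shared peaks per kb, but 9.03 and 9.33 in replicate 2 alone, where 24.4% of the Gly-X-Y bins and 23.5% of the others lay in a peak. The shared densities were 5.04 and 7.45 in Col1a2, 1.56 and 4.30 in Col1a1 and 1.54 and 3.52 in Col5a1. Col5a2 had 0.934 and 0.782 per kb on 3 and 1 shared peaks, and its direction differed between the libraries, with 1.87 and 1.56 in replicate 1 and 1.24 and 2.35 in replicate 2. Within each single gene the intervals of the Gly-X-Y and other bins in shared peaks overlapped. In Col1a2 the shares were 9.24% (4.71 to 15.9) and 17.9% (7.54 to 33.5). In the fibril genes together they were 6.55% (4.68 to 8.88) and 11.6% (8.17 to 15.8), and the intervals overlapped too. The basement membrane genes gave 310 of the 990 Gly-X-Y bins, with 1 in a shared peak. In collagen VI no Gly-X-Y stretch held a shared peak, 0 of 100 bins with an upper 95% limit of 3.62%. Of its other bins, 517 of all 907, 44 lay in one (8.51%, 6.25 to 11.3), and the intervals were separate. The Gly-X-Y and other bins of collagen VI lay mainly in exons of different length, as given below.

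**Figure D3:**
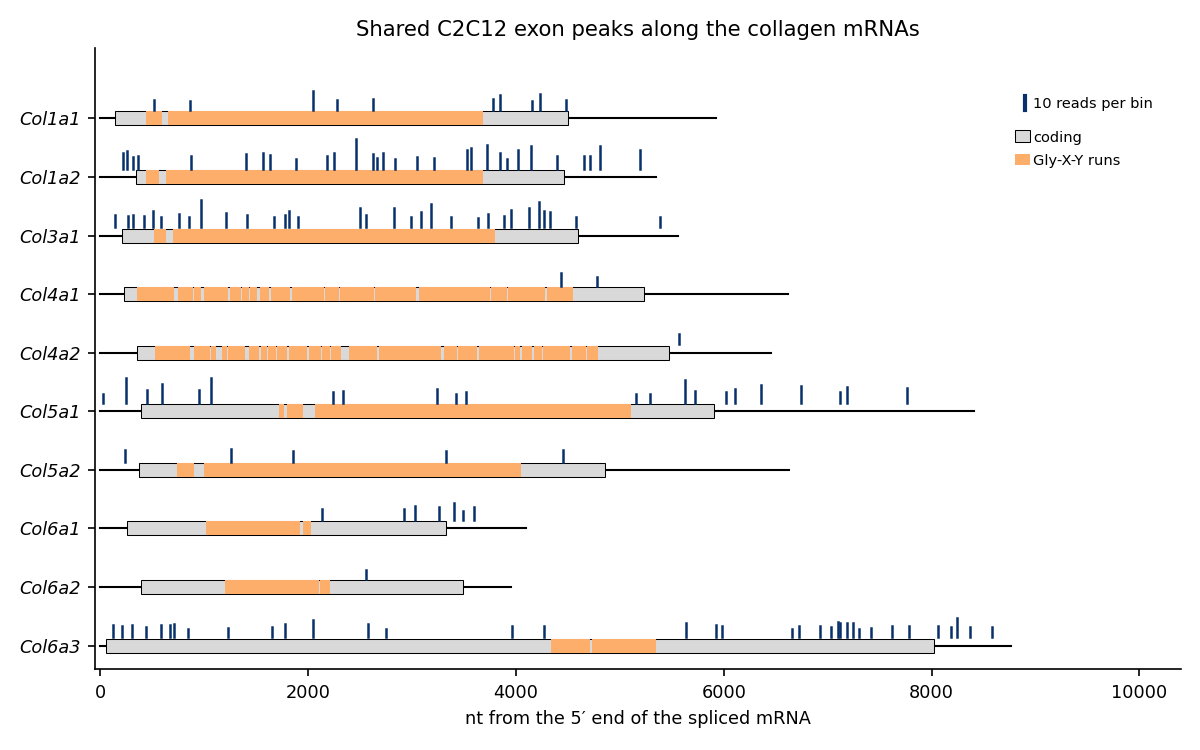
Shared C2C12 exon peaks along the spliced mRNA of each collagen gene (distance in nt from the 5′ end of the transcript used), with the height of each blue line giving the mean signal of both replicates, grey boxes coding sequence and orange boxes Gly-X-Y runs. Col1a2 and Col3a1 carry peaks along the whole mRNA, and in Col6a3 the Gly-X-Y part holds 0 peaks.

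Exon length moved with this contrast. In the fibril genes Gly-X-Y is coded mainly by short exons. The median coding exon was 54 nt long in all 5 of them, and they held 21 to 29 exons of exactly that length. In the basement membrane genes the median was 88.5 nt (Col4a1) and 107 nt (Col4a2). In the fibril genes 4.37% (2.20 to 7.68) of the Gly-X-Y bins in exons of at most 63 nt lay in a shared peak, and 8.59% (5.64 to 12.4) of those in exons of 64 to 120 nt. The other coding bins of exons of 64 to 120 nt gave 8.57%, on 35 bins with an interval of 1.80 to 23.1. In exons above 120 and up to 300 nt the shares were 5.41% of 37 Gly-X-Y bins (0.661 to 18.2) and 12.2% of 254 other bins (8.45 to 16.9). Within these length classes the intervals of the fibril genes overlapped. Over all 10 genes they did not in exons above 120 and up to 300 nt, with 2 of 198 Gly-X-Y bins (1.01%, 0.123 to 3.60) against 42 of 426 others (9.86%, 7.20 to 13.1), where 161 of the 198 came from the basement membrane genes and held 0. In collagen VI 87 Gly-X-Y bins lay in exons of at most 63 nt, where its 5 other bins also held 0. At 64 to 120 nt 0 of 13 Gly-X-Y bins and 5 of 33 others lay in a shared peak, with overlapping intervals. Longer exons held 107 and 372 of its other bins and no Gly-X-Y bin. Gly-X-Y and exon length cannot be told apart there. Over all 10 genes the density was 1.83 shared peaks per kb in exons of at most 63 nt, 2.49 at 64 to 120 nt, 2.85 above 120 and up to 300 nt and 2.99 above that. Without Col6a3 the last class had 1.76 on 4 exons. In the other genes with a shared peak the 4 classes gave 0.353, 0.364, 0.518 and 1.32.

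Few peaks lay at the downstream ends of exons. Of the bins within 20 nt of the downstream end of a coding exon of the collagen genes 1.14% (0.370 to 2.63) lay in a shared peak, against 7.92% (6.30 to 9.80) of those at 40 nt or more. Near the upstream end the shares were 5.68% (3.71 to 8.27) and 6.69% (5.20 to 8.44). The other genes with a shared peak had 0.559% and 1.55% for the downstream end and 0.848% and 1.48% for the upstream end. Reads were placed on the genome without splicing, so reads that span a junction of spliced RNA are missing from the lists, and how far this shaped the counts was not tested. Of the 148 exon peaks, 21 crossed an exon end (14.2%).

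**Figure D4:**
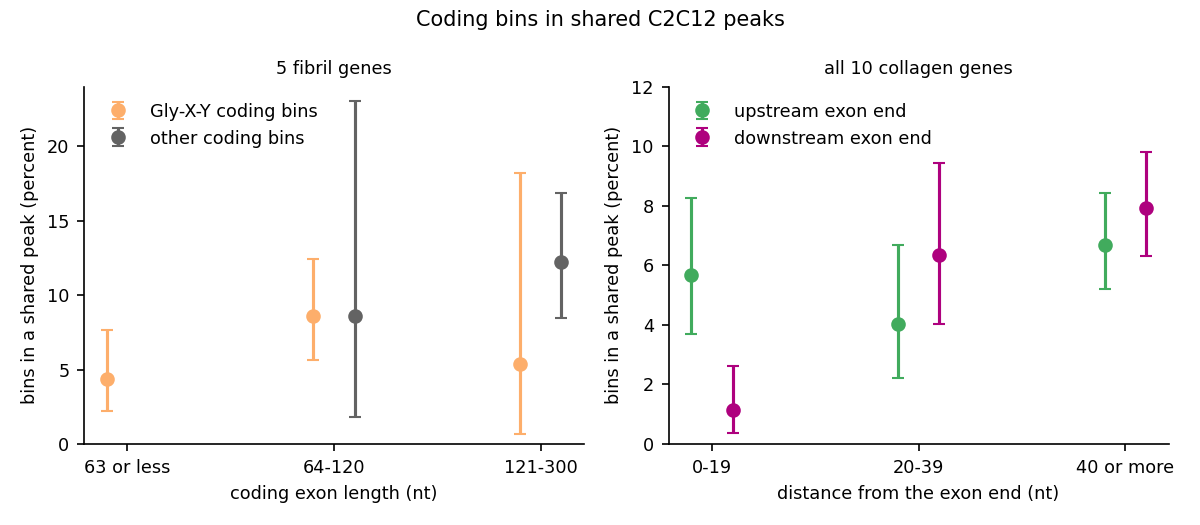
Percent of coding bins of 20 nt in a shared C2C12 peak, with exact 95% intervals over bins. Left, Gly-X-Y and other coding bins of the 5 fibril genes by exon length (classes of under 20 bins are left out). Right, bins of all 10 collagen genes by distance from the upstream and the downstream exon end, where the nearest bins to the downstream end stand lowest at 1.14%.

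Along the spliced mRNAs 146 peaks could be placed, and when each mRNA was divided into 3 equal parts 49 lay in the part nearest the 5′ end, 37 in the middle and 60 nearest the 3′ end. Within 200 nt of the stop codon, the region known for m6A, lay 12 of them (8.22%, 4.32 to 13.9), and that window made up 6.49% of the length of the mRNAs. Col3a1 held 14, 9 and 9 peaks in the 3 parts and Col1a2 8, 12 and 10. In Col6a3 the parts held 14, 3 and 19 peaks, and in Col6a1 0, 1 and 6.

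The 21 intron peaks came from 4 genes, 10 from Col5a1, 9 from Col6a3 and 1 each from Col1a2 and Col3a1. They lay 26 to 9539 nt from the nearest exon with a median of 329 nt, 7 of them within 100 nt, and 0 fell in an exon of another annotated transcript. In Col5a1 7 of the 10 lay together in chr2:27884741-27888860, where the strongest had 14 and 15 reads per bin. In Col6a3 8 of the 9 lay in chr1:92709701-92713980.

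The m6A consensus words were found under the collagen peaks in shares close to those of the same exons as a whole. GGAC, searched on the strand of the RNA within 20 nt of the peak, was found at 49 of 148 shared exon peaks (33.1%, 25.6 to 41.3) and in 33.2% of 3790 windows tiled over the collagen exons. GGACT was found at 8.78% of the peaks (4.76 to 14.6) and in 7.20% of the windows, and any of the 4 words at 64.2% and in 66.4%. GGAC and GGACT overlap by construction. At the shared exon peaks of other genes GGAC was found at 22.9% of 12530. The share of G and C was 54.9% under the collagen peaks, 53.8% in the tiled windows and 56.1% under the peaks of other genes.

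In ASC-48 hr the collagen genes held few peaks on the strand of their RNA, 1 in each library of B1, then 4 (T1) and 13 (T2) in those of B2. None of these was found in all 4 libraries. The other strand of the same genes held 4, 3, 2 and 5 peaks. The strand therefore does not show that the counted peaks came from collagen RNA. Over the 4 libraries 7 of the 10 genes had such a peak, and 25.0% of all protein-coding genes had one in any ASC-48 hr library. That share covers genes of any length, and it was not counted among genes with as much exon as the collagen genes. Col1a1, Col6a1 and Col6a2 had none. B2 T2 gave 13 of the 19 peaks, was the longest list and was the one that held peaks of 4 reads per bin, and without it 6 peaks were left.

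An intron peak of Col6a3 (chr1:92671761-92671780) was the one found most often, with 8 reads per bin in B1 T1, 6 in B1 T2 and 5 in B2 T1. It was listed in neither C2C12 library nor in B2 T2. Going the other way, a coding peak of Col1a2 (chr6:4489521-4489540) had 7 reads per bin in B2 T1 and 16 and 15 in C2C12. They are shown as the sites that differ in where they recur, and neither holds any of the 4 words.
Col6a3, chr1:92671756-92671785, minus strand, intron: atttctgtccctatcttccatggtattccc
Col1a2, chr6:4489516-4489545, plus strand, coding exon: cttcatgcgcctgctagccaaccgtgcttc

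Col3a1 had 2 coding peaks in B2 T1 and 2 in B2 T2 at different places, of which the one at chr1:45390461-45390480 (5 reads per bin) was also in both C2C12 libraries. Col5a2 had 6 peaks, all in B2 T2 and with at most 8 reads per bin, 5 of them in coding exons. The remaining peaks were 2 on Col4a1 and 1 each on Col4a2, Col5a1 and Col6a3, with 4 to 6 reads per bin, all in B2 T2. For the identity of the cells, 1, 4, 5 and 5 of 8 myoblast markers had a peak in the libraries taken in the same order, with Pax7 in all 4. In the C2C12 libraries, whose lists are longer, 7 and 8 of the 8 had a peak, with 72 and 69 peaks. Of 6 markers of fibro-adipogenic cells, which express much collagen, 0 had a peak in any ASC-48 hr library. In C2C12 3 and 2 of these 6 did, with 7 and 10 peaks. Of 4 endothelial markers 1, Pecam1, had 1 peak in each of the 6 libraries. A list of peaks cannot show that a gene is off, and the part of other cells was not tested.

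Other genes of the collagen family and of collagen processing carried uneven numbers of peaks in C2C12. For comparison, 21.8% of all protein-coding genes had a shared peak, and 40.3% of those with as much exon as the 10 collagen genes. Of the other 33 collagen genes 10 had a shared peak (30.3%), 28 peaks in all. Col12a1, a fibril-associated collagen, held 14 of these, 9 of them coding, and 1.07 exon peaks per kb. Col18a1, a basement membrane collagen, held 4, Col25a1 and Col8a1 2 each and Col13a1 1, as did 5 more. The shared peaks of Col25a1, of Col13a1 and of those 5 all lay in introns. Of 32 measured genes for collagen biosynthesis, crosslinking and receptors 17 had a shared peak (53.1%), 91 peaks in all. Lox, which crosslinks collagen, held 17 peaks and 3.62 exon peaks per kb. Serpinh1, the collagen chaperone HSP47, held 13 and 5.34 per kb, a density between those of Col1a2 and Lox. P4hb, a subunit of prolyl 4-hydroxylase, held 10, Pcolce, an enhancer of procollagen cleavage, 9 and Itgb1, a receptor subunit, 7.

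The genes whose peaks fell most alike were named from the others with at least 20 shared peaks, by the summed absolute difference of their 4 shares from those of the collagen genes together. Among the 5 most alike were Spnb2 at 14.1 percentage points, Pcdhgc5 at 14.6, Nisch at 20.6 and Nid1, a basement membrane protein, at 20.9.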

How the data were processed

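The 10 genes, the further gene lists and the rules were chosen with earlier results of these data known. Per the labels and the study's methods, the authors trimmed reads with cutadapt 1.15, removed those matching pre-rRNA and aligned the others to mm9 (Bowtie 1.2.3, no splicing), at several positions where a read matched several, and called peaks per library with Piranha, whose settings are given for ASCs. The deposited signal is the number of reads per bin of 20 nt, a mean over the bins of wider peaks, without normalization. The deposited p-value is Piranha's, unadjusted, and reached 0.000167 to 0.000995 depending on the library. How duplicate reads were treated is not given in the sources used here.

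From these lists, peaks were assigned to merged exons of protein-coding transcripts of GENCODE vM1 on NCBIM37, which is mm9, in the order coding exon, 3′UTR, 5′UTR and intron, in Python 3.11.15 with numpy 2.4.6, scipy 1.17.1 and pysam 0.24.0. Sharing required an overlap on the same strand. The overlap and counting code passed 11 of 11 checks on 8000 simulated peaks. Intervals are exact (Clopper-Pearson, 95%) and cover counting error over peaks or bins, which are neither independent molecules nor replicates, so no test was run. Named beside the 10 genes were the strongest shared peak of each, the 5 genes of each further list with the most shared peaks and the 5 most alike, of which 1 is not reported here. The marker genes, and the peaks shown for ASC-48 hr, were chosen after values were seen. Of the 33 biosynthesis genes, Mia3 was not matched by symbol. Overlap, p-value, signal, strand, exon set and the library used were varied, with 12 further alternatives added after the data were seen. Figures were drawn with matplotlib 3.10.9.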

Additional observations from a re-analysis of the deposited data

Results flagged for a closer look

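In 5 genes 1 of the 4 ASC-48 hr libraries stood apart from the others, which all held 0 peaks. Col5a2 had 6 peaks in B2 T2, Col4a1 had 2, and Col4a2 and Col5a1 had 1 each there, and Col1a2 had 1 peak in B2 T1. These are 5 of 11 groups of values looked at, the 10 genes and their total. Where 3 libraries hold 0, any peak in the fourth sets it apart, so the rate of about 1 in 20 that chance gives for continuous values does not apply to them. Over the 10 genes together the libraries (1, 1, 4 and 13 peaks) did not stand apart by the same measure.

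On the strand of the collagen genes, which the counts per gene leave out, the ASC-48 hr libraries held 14 peaks. They were 4 and 3 in those of B1 and 2 and 5 in those of B2, where C2C12 held 0 and 1. An intron peak of Col1a2 at chr6:4484121-4484140 was listed in all 4 libraries, with 7, 9, 8 and 7 reads per bin. An intron peak of Col5a1 at chr2:27793181-27793200 was also listed in all 4, with 6, 6, 5 and 5. Neither was listed in C2C12, and these places recurred across the ASC-48 hr libraries more fully than any collagen peak on the strand of the RNA.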

How the results depend on the processing

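With p-values of at most 1e-05 in both libraries 29 shared peaks were left in 6 genes, with 62.1% in coding exons and 0.375 exon peaks per kb. With at least 8 reads per bin in both, 77 were left, at 1.02 exon peaks per kb. Taking 1 replicate alone gave 294 to 305 peaks, 63.3 to 65.3% in coding exons, 19.4 to 21.3% in introns and 3.56 to 3.60 exon peaks per kb, since every peak of a library then counts. The 3′UTR share stayed within its interval, at 11.9 to 12.8% with 1 replicate alone. In ASC-48 hr the 19 peaks became 33 on either strand, 3 at p-values of at most 1e-05, 1 when T1 and T2 of a biological replicate had to share it, and 6 to 18 with 1 library left out, the lowest without B2 T2. The other alternatives to these values moved them by less than their interval or 1.5 times. Of 90 values for single genes 54 stayed within 1.5 times, 16 rose and 20 fell further than that. The ratio of peaks per kb outside over inside Gly-X-Y, 1.85, ran from 1.49 without Col6a3 to 2.21 for bins inside exons. No paired analysis was possible because no test between groups was run and the groups share no replicate. Peaks under 8 reads per bin were found again in the other replicate in 38.9 to 40.1% of cases, so weak sites limit the counts.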
